A study of Mus musculus with 14 samples.

Results

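The neuronal intermediate filament genes are the 5 genes of the mouse genome that encode the filament subunits of mature neurons. They are Nefl, Nefm and Nefh (the light, medium and heavy neurofilament chains), Ina (alpha-internexin) and Prph (peripherin). All 5 were found by symbol in the deposited gene table, among 55421 mouse genes counted, and all 5 passed the filter on low counts in every comparison. Read counts were available for 14 brainstem libraries of 7 mice on a C57Bl/6 background, all of the genotype TH-Cre;Slc6a2-eGFP/Rpl10a and 2 to 3 months old at infusion. Into the locus coeruleus, the small noradrenergic nucleus of the pons, 4 mice (letters B, C, L and M) were infused with human tau carrying a P364S substitution, and 3 mice (H, I and K) with enhanced yellow fluorescent protein (EYFP). Each mouse gave an immunoprecipitate (IP) and the pre-IP fraction of the same tissue, so there were 4 animals in each of the tau groups (IP and pre-IP) and 3 in each of the EYFP groups. The Slc6a2 (noradrenaline transporter) transgene drives a green fluorescent fusion of ribosomal protein L10a. The pull-down is therefore directed at RNA on ribosomes of cells in which that transgene is active. The label of the treatment does not say which cells take up the infused construct. In pooled tissue of this kind, fewer cells of a type and less RNA per cell cannot be told apart.

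Intermediate filaments are rope-like polymers that fill axons and set their calibre. In neurons the light chain forms the core of the filament, the medium and heavy chains copolymerise with it and carry long phosphorylated tails, alpha-internexin is a further subunit of central axons, and peripherin is best known from peripheral axons and from brainstem neurons that project to the periphery. The subunits are made in the cell body and carried down the axon by microtubule motors, and neurofilament light chain released into body fluids is widely used as a marker of axonal damage.

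Total counts ran from 41843489 to 65664551 per library. Counts of the tau construct were 3527 to 47177 in the 8 tau libraries and 2 to 18 in those of EYFP animals H and I, but 408 in the pre-IP and 398 in the IP library of EYFP animal K. The IP library of EYFP animal I had an RNA integrity number of 4.2, against 7.7 to 9 in the other libraries. Animal M is labelled female, and its libraries held 674 and 1153 counts of Y-linked genes, against at most 4 in the libraries of the other animals labelled female. IP RNA concentrations were 0.1 to 0.8 ng per microlitre in tau animals and 0.7 to 2.8 in EYFP animals. The defining noradrenergic gene Dbh (dopamine beta-hydroxylase) stood at 128 to 1292 counts per 1e6 counts of the library (CPM) in tau IP. It stood at 29.2 to 56.1 in EYFP IP and 8.31 to 26.5 over both pre-IP groups. The pull-down thus carried the labelled cell type's marker in both treatments, but also markers of other cells. In EYFP IP 10 noradrenergic markers summed to 494 to 555 CPM and 5 oligodendrocyte markers to 7867 to 11727. In tau IP the sums were 961 to 6481 and 3174 to 9098. IP levels are therefore not levels of noradrenergic cells alone. Labels of the sequenced libraries carry numbers in 2 ranges, up to 11 (animals B, C, H and I) and from 17 (K, L and M). Mean log2 differences of tau from EYFP animals are given within these ranges for each fraction and for IP over pre-IP.

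Nefl and Nefm are neighbours on opposite strands of chromosome 14, and their annotated exons overlap. Nefl (ENSMUSG00000022055.7) spans chr14:68083863-68089095 of GRCm38 on the plus strand with 3380 exon bases. Nefm (ENSMUSG00000022054.11) spans chr14:68082590-68124846 on the minus strand with 5782 exon bases. The Nefm transcript Nefm-201 ends short of Nefl, but the last of the 4 exons of Nefm-202 runs antisense through exon 1 of Nefl and shares 1108 bases with it, at chr14:68083863-68084970. The shared bases are 32.8% of the Nefl exons and 19.2% of the Nefm exons, and 144 of them are coding on both strands. The library kits do not mark strand, and the handling of strand and of reads in 2 genes is not given in the sources used here, so the split of reads between Nefl and Nefm in that stretch is uncertain. The first 60 bases of that Nefm-202 exon, chr14:68084911-68084970, show the 2 coding readings of the same DNA, each 5′ to 3′ from the GENCODE M21 transcripts of GRCm38, in lower case throughout since every base is shared. The plus-strand line is Nefl coding sequence and the minus-strand line is Nefm-202 coding sequence, and a read of either gives the same unstranded fragment.
Nefl-201: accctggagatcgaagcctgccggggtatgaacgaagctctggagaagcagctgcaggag
Nefm-202: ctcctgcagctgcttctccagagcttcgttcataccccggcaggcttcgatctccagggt

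**Figure D1:**
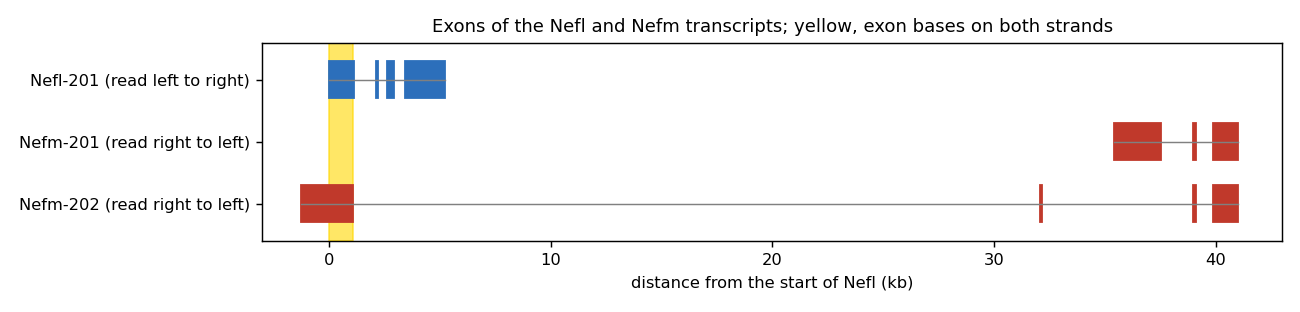
Exons (boxes) of 1 Nefl and 2 Nefm transcripts against the distance in kb from the start of Nefl. The yellow band marks the 1108 bases that are exon in Nefl-201 and in Nefm-202 on the other strand; Nefm-201 does not reach the band.

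The other 3 genes lie apart. Nefh (ENSMUSG00000020396.8) spans chr11:4938754-4948064 on the minus strand with 3994 exon bases, and Prph (ENSMUSG00000023484.14) spans chr15:99055174-99058978 on the plus strand with 1999, neither sharing exon bases with another gene. Ina (ENSMUSG00000034336.3) spans chr19:47014698-47025327 on the plus strand with 3240 exon bases, of which 456 (14.1%, chr19:47014698-47015153) are exon of Nt5c2, a nucleotidase gene, on the other strand.

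Levels of different genes were compared as CPM per kb of exon. On that scale the order was Nefl, Ina, Nefm, Nefh and Prph. Over the 14 libraries Nefl averaged 340 CPM per kb ± 68.7 (SD), Ina 99.2 ± 19.6, Nefm 54.6 ± 19.5, Nefh 38.3 ± 19.3 and Prph 23.0 ± 6.28. Nefl stood above Ina in 14 of 14 libraries, by 2.19 to 5.18 times, and Ina stood above Nefm in 14 of 14. Nefm stood above Nefh in 12 of 14 libraries. With the shared exon bases left out of the lengths it was 14 of 14. Reads in those bases stayed in the counts, so that step could only raise Nefm against Nefh. Nefh stood above Prph in 12 of 14. The last 2 steps of the order were thus not separated in every library.

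Nefl, the light chain, was the most abundant of the genes in every group. Its CPM in tau IP was 596 in animal B, 892 in C, 1055 in L and 1150.4 in M. In EYFP IP it was 1205 in H, 1207 in I and 1538 in K. All 4 tau IP values lay below all 3 EYFP IP values on the CPM scale, as for 9.22% of the 19472 genes tested. They overlapped after TMM (trimmed mean of M-values) scaling. In pre-IP the values were 1097 (B), 1161 (C), 1074 (L) and 1433 (M) for tau and 1229 (H), 1074 (I) and 1393 (K) for EYFP, and these groups overlapped.

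Nefm, the medium chain, has a long tail that is known to set the calibre of large motor axons. Its CPM in tau IP was 213 in B, 340.4 in C, 303 in L and 343 in M. In EYFP IP it was 462 in H, 469 in I and 540.3 in K. The tau IP and EYFP IP values did not overlap on either scale. In CPM, 9.22% of the 19472 genes tested were likewise lower in tau IP without overlap, and the share after TMM scaling was not computed. In pre-IP the values were 243 (B), 256 (C), 192 (L) and 327 (M) for tau and 176 (H), 200.6 (I) and 353 (K) for EYFP. The pre-IP groups overlapped, with animal K the highest of the EYFP pre-IP libraries.

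Nefh, the heavy chain, carries the longest tail and is the most phosphorylated of the subunits. Its CPM in tau IP was 89.4 in B, 129 in C, 172 in L and 264 in M. In EYFP IP it was 132 in H, 268 in I and 273 in K. The IP groups overlapped. In pre-IP the values were 69.9 (B), 94.1 (C), 117 (L) and 103 (M) for tau and 95.1 (H), 84.5 (I) and 250.3 (K) for EYFP. The EYFP pre-IP library of animal K stood apart, above all 6 other pre-IP libraries.

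Ina encodes alpha-internexin, which is known to appear early in neuronal development. Its CPM in tau IP was 260.2 in B, 297 in C, 364 in L and 388 in M, and in EYFP IP 329.8 in H, 477 in I and 378 in K. In pre-IP it was 241 (B), 273 (C), 299.8 (L) and 265 (M) for tau and 329 (H), 276 (I) and 324 (K) for EYFP. The groups overlapped in both fractions, and the IP library of animal I, with the low RNA integrity number, held the highest value.

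Prph, peripherin, was the least abundant. Its CPM in tau IP was 26.7 in B, 33.9 in C, 42.9 in L and 61.5 in M, and in EYFP IP 48.7 in H, 42.96 in I and 69.1 in K. In pre-IP it was 39.6 (B), 34.4 (C), 46.3 (L) and 57.4 (M) for tau and 37.0 (H), 40.6 (I) and 63.7 (K) for EYFP. All 4 groups overlapped, and the values from animals M and K were the highest of their groups in both fractions. Pre-IP values of both treatments were 34.4 to 40.6 up to library number 11 and 46.3 to 63.7 from 17, again without overlap of the ranges. Every Prph value was far above the floor of 3 counts, which corresponds to 0.0457 to 0.0717 CPM in these libraries and covers counting error only.

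**Figure D2:**
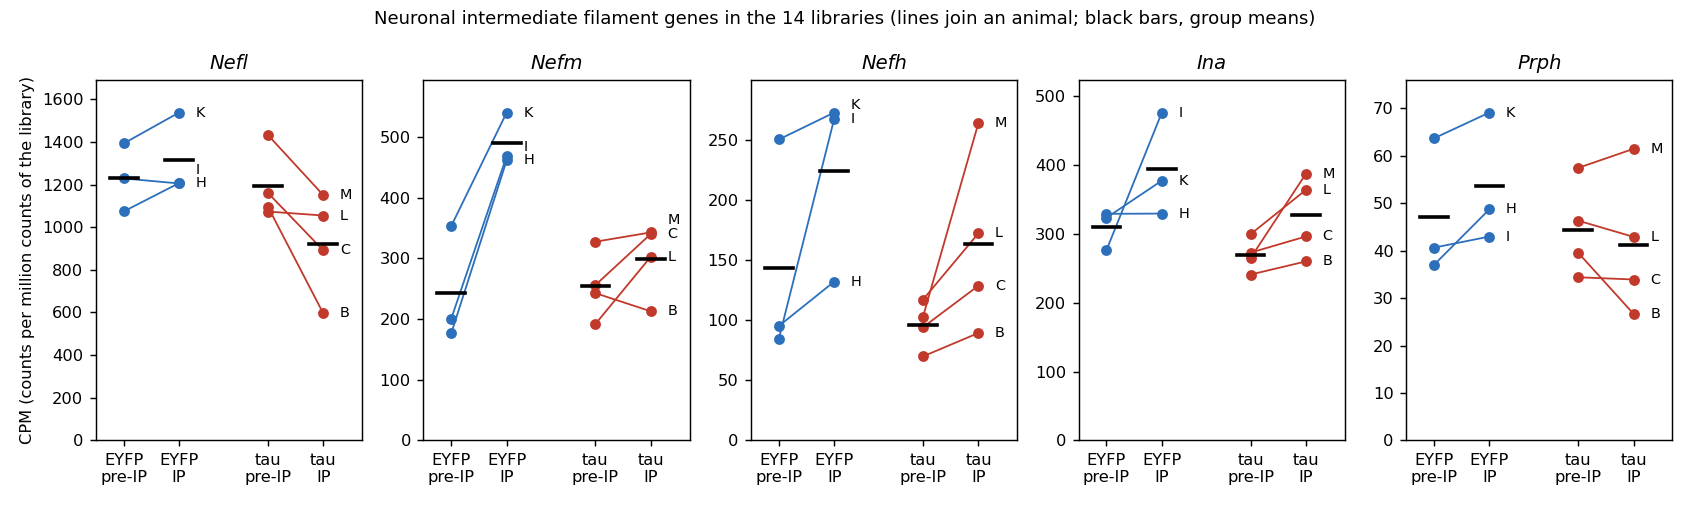
CPM (vertical axis, from 0, each gene on its own scale) of the 5 genes in EYFP and tau animals, pre-IP and IP; points are libraries, lines join the 2 libraries of an animal (letters) and black bars are group means. Nefm lines rise in all 3 EYFP animals, from 176 to 353 CPM in pre-IP to 462 to 540.3 in IP. In tau animals they rise in C, L and M and fall in B. Tau IP values of Nefl and Nefm lie below those of EYFP IP, as for 9.22% of the 19472 genes tested.

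The first comparison asked which of the genes the ribosome pull-down carried more or less of than the tissue it came from. Nefm, Nefh and Ina rose in IP against pre-IP, and Nefl and Prph did not pass the test. The log2 fold change over all 14 libraries, with treatment in the model, was 0.59 for Nefm (SE 0.19, edgeR quasi-likelihood adjusted p = 0.0257), 0.74 for Nefh (SE 0.27, edgeR adjusted p = 0.0494) and 0.35 for Ina (SE 0.10, edgeR adjusted p = 0.0166). For Nefl it was -0.14 (SE 0.14, edgeR adjusted p = 0.485) and for Prph 0.05 (SE 0.19, edgeR adjusted p = 0.887). Thus 3 of 5 genes were called higher and 0 lower, where 15.6% of the 19472 genes tested were called higher and 14.2% lower. The median log2 fold change of the 5 genes was 0.35, against -0.004 for all genes tested. With the animals as a replicate block the same 3 genes passed, where 13.4% of 21400 genes were called higher, and the log2 fold changes were 0.63 for Nefm, 0.74 for Nefh and 0.33 for Ina (edgeR adjusted p = 0.014, 0.00563 and 0.0257).

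The calls depended on single animals. Without EYFP animal I, the one with the low RNA integrity number in IP, none of the 3 passed: Nefm stood at 0.47, Nefh at 0.59 and Ina at 0.25 (edgeR adjusted p = 0.103, 0.16 and 0.101), while 12.4% of 20364 genes were still called higher. Without animal K, whose libraries held tau construct counts, all 3 passed, and without animal M only Nefm did. Without animal B all 3 passed, and without C, H or L only Ina did. The share of all genes called higher was 12.3% without K, 12.3% without M, 15.4% without B, 10.2% without C, 12.7% without H and 10.8% without L. In each of these fits the 3 log2 fold changes were above 0.

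Per animal, the log2 difference of IP over pre-IP after TMM scaling was above 0 in 7 of 7 animals for Nefm, Nefh and Ina, which held for 11.7% of the 20495 genes tested. With library totals in place of TMM, where 10.2% of genes were above 0 in every animal, it was above 0 in 6 of 7 animals for Nefm, the exception being tau animal B, and in 7 of 7 for Nefh and Ina. For Nefm it was 0.06 (B), 0.48 (C), 0.69 (L) and 0.03 (M) in tau animals and 1.45 (H), 1.18 (I) and 0.56 (K) in EYFP animals. For Nefh it was 0.61 (B), 0.52 (C), 0.59 (L) and 1.33 (M) against 0.53 (H), 1.62 (I) and 0.07 (K). For Ina it was 0.36 (B), 0.19 (C), 0.32 (L) and 0.52 (M) against 0.06 (H), 0.75 (I) and 0.17 (K). The largest Nefh and Ina values were both those of animal I.

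Nefl and Prph took both signs. For Nefl the log2 difference of IP over pre-IP was -0.63 (B), -0.31 (C), 0.01 (L) and -0.35 (M) in tau animals and 0.03 (H), 0.13 (I) and 0.09 (K) in EYFP animals. For Prph it was -0.31 (B), 0.05 (C), -0.08 (L) and 0.07 (M) against 0.46 (H), 0.04 (I) and 0.06 (K). Nefl was above 0 in 4 of 7 animals and Prph in 5 of 7, or in 2 and 4 of 7 with library totals.

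The proportions of the subunits therefore differed between the fractions. The ratio of Nefm to Nefl counts within a library, which no scaling of the library can move, was 0.212 ± 0.0227 (SD, n = 4) in tau pre-IP and 0.331 ± 0.0457 (n = 4) in tau IP. It was 0.195 ± 0.0555 (n = 3) in EYFP pre-IP and 0.374 ± 0.0200 (n = 3) in EYFP IP. The IP library had the higher ratio in 7 of 7 animals, by 0.38 (M) to 1.42 (H) on the log2 scale. The share of all genes whose ratio to Nefl rose in every animal was not computed. With library totals Nefl itself was higher in IP in only 2 of 7 animals, which raises the ratio of other genes to it. The 2 genes share exon bases on opposite strands, so part of each count may belong to the other, and the effect of that sharing on the ratio was not tested. The ratio to Nefl was also higher in IP in 7 of 7 animals for Ina (log2 change 0.03 to 0.99), in 6 of 7 for Nefh (-0.02 to 1.68) and in 4 of 7 for Prph (-0.09 to 0.43). Per kb of exon, Nefl made up 66.9% ± 2.03 (SD) of the summed CPM of the 5 genes in tau pre-IP and 65.2% ± 3.07 in EYFP pre-IP, but 55.8% ± 1.82 in tau IP and 57.4% ± 3.8 in EYFP IP.

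**Figure D3:**
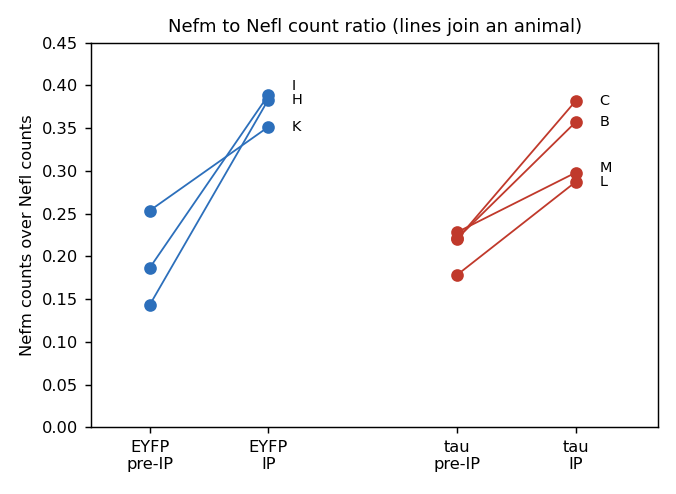
Ratio of Nefm to Nefl counts (vertical axis, no unit, from 0) in the pre-IP and IP library of each animal (points joined by a line, letters). All 7 lines rise from pre-IP, where no library was above 0.254, to IP, where none was below 0.287. The share of all genes whose ratio to Nefl does the same was not computed.

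Within each treatment alone, fewer of the genes passed. In tau animals 0 of 5 passed, where 10.4% of 18949 genes were called higher, and the log2 fold changes were 0.28 for Nefm, 0.81 for Nefh and 0.33 for Ina (edgeR adjusted p = 0.329, 0.0634 and 0.103). In EYFP animals only Nefm passed, at 0.99 (edgeR adjusted p = 0.0457), where 3.96% of 19105 genes were called higher. With the replicate block, a setting chosen after seeing the data, 9.4% of 20566 genes were called higher in tau animals and 8.16% of 19971 in EYFP animals. In these fits Nefh passed in tau animals (0.72, edgeR adjusted p = 0.017) and Nefm and Nefh passed in EYFP animals (1.07 and 0.74, edgeR adjusted p = 0.000435 and 0.0293). Whether the change in Nefm differed between treatments is tested by the interaction given further on.

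Markers of other cells moved between the fractions as well. All 10 of the noradrenergic list rose in IP (log2 fold change 1.23 to 4.24), and 3 of 6 general neuronal markers rose while 1 fell. In the microglial list 3 of 5 fell, in the oligodendrocyte list 1 of 5 and in the astrocyte list 1 of 4. Of all 19472 genes tested, 15.6% were called higher and 14.2% lower. Large motor and sensory neurons are rich in neurofilaments. The cholinergic and motor list summed to 22.5 to 78.9 CPM in IP and 45.2 to 86.7 in pre-IP. In this list 1 of 6 genes was called higher (edgeR adjusted p = 0.0492) and 0 lower. Mnx1 and Tbx20 were at 0 in at least 1 library, and their group means were at most 0.65 CPM. The defining gene of the list, Chat, averaged 7.15 CPM in tau IP, 14.1 in EYFP IP, 11.4 in tau pre-IP and 11.9 in EYFP pre-IP. For scale, the noradrenergic gene Dbh averaged 758, 40.6, 11.8 and 15.7 CPM in the same groups. The mesencephalic trigeminal and sensory list summed to 33.8 to 54.1 CPM in IP and 37.2 to 44.8 in pre-IP, with 1 of 6 called higher, 0 lower, and 3 genes at 0 in at least 1 library. The part of these cells in the changes of Nefm, Nefh and Ina was not tested.

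The second comparison, the one the series was designed around, set tau IP against EYFP IP. None of the 5 genes passed the test, and neither did any other gene: 0% of 19472 genes were called by edgeR, with 2336 at an unadjusted p under 0.05, and limma voom called 0 while DESeq2 called 342. All 5 log2 differences were below 0, with a median of -0.37 against -0.08 for all genes tested. Nefm had the largest, -0.62 (SE 0.17, edgeR unadjusted p = 0.0044, adjusted p = 0.318). DESeq2 gave Nefm -0.59 with an adjusted p of 0.0528, limma voom an adjusted p of 0.14, and the other settings edgeR adjusted p-values from 0.143 to 0.636. The log2 difference was -0.42 for Nefl (SE 0.20, edgeR adjusted p = 0.439), -0.37 for Nefh (SE 0.35, adjusted p = 0.701), -0.17 for Ina (SE 0.18, adjusted p = 0.727) and -0.29 for Prph (SE 0.27, adjusted p = 0.699).

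In CPM, 2 of the 5 genes, Nefl and Nefm, were lower in all 4 tau IP libraries than in any EYFP IP library, where 9.22% of the 19472 genes were. For Nefm the log2 difference was -0.66 without animal I, -0.54 without K and -0.67 without M, and for Nefl -0.49, -0.29 and -0.53. The other 3 moved more when 1 animal was left out: Prph from -0.06 (without K) to -0.53 (without M), Nefh from -0.19 (without B) to -0.69 (without M) and Ina from -0.03 (without I) to -0.31 (without H). In the lower range of library numbers (animals B, C, H and I) the mean log2 difference was -0.59 for Nefm and -0.53 for Nefl, and in the upper range (K, L and M) -0.72 and -0.46. For Nefh the within-range differences were -0.61 and -0.33, for Prph -0.41 and -0.41, and for Ina -0.31 and 0.02. Ina thus had no difference of a single sign in the 2 ranges.

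Marker lists were read in the same libraries, and no gene of any list passed the test. The noradrenergic list summed to 961 to 6481 CPM in tau IP and 494 to 555 in EYFP IP, with 10 of 10 log2 differences above 0 (median 2.82) and 0 of 10 passing the test. The oligodendrocyte list summed to 3174 to 9098 CPM in tau IP and 7867 to 11727 in EYFP IP, the astrocyte list to 142 to 247 and 281 to 375, and the transmitter genes of other neurons to 315 to 559 and 696 to 784. Every gene of those 3 lists had a log2 difference below 0 and none passed. The motor list summed to 22.5 to 60.1 CPM in tau IP and 50.9 to 78.9 in EYFP IP. The sums of the oligodendrocyte and motor lists overlapped between the treatments, and those of the other 3 lists did not. How often sums of other genes do not overlap was not computed. The general neuronal list summed to 5822 to 6500 CPM in tau IP and 5336 to 7344 in EYFP IP, which overlapped. Of its 6 log2 differences 4 were above 0 and 2 below, with a median of 0.28. The part of these markers, and of the RNA concentrations given above, in the Nefl and Nefm differences was not tested.

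In the pre-IP libraries of the same animals the comparison of tau with EYFP called 0 of the 5 genes and 0% of 19197 genes by edgeR (545 at an unadjusted p under 0.05), and DESeq2 and limma voom called 0. The log2 difference was -0.03 for Nefl (SE 0.15), 0.06 for Nefm (SE 0.25), -0.18 for Ina (SE 0.13) and -0.08 for Prph (SE 0.23), and the edgeR adjusted p was 1 for all of these. Nefh had the largest, -0.59 (SE 0.34, edgeR adjusted p = 1), and it rested on animal K: without K it was 0.15. Without K the log2 difference of Nefm was 0.49, and that of Prph 0.25. The mean log2 difference of Nefm was 0.45 in the lower range of library numbers and -0.53 in the upper range. For Nefh it was -0.10 and -1.23, and for Nefl 0.02 and -0.20. For Ina it was -0.19 and -0.24, and for Prph -0.03 and -0.34. The sign for Nefm and Nefl thus turned between the ranges, and K is the only EYFP animal of the upper range.

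The interaction of treatment with fraction tests whether the IP over pre-IP difference itself was unequal in the 2 treatments. It shares its libraries with the comparisons above. By edgeR 0 of 5 genes and 0% of 20495 genes were called (1223 at an unadjusted p under 0.05), DESeq2 called 52 genes and no member, and limma voom called 0. The estimate, tau minus EYFP, was -0.68 for Nefm (SE 0.35, edgeR adjusted p = 0.82), -0.39 for Nefl (SE 0.26, adjusted p = 0.845), -0.21 for Prph (SE 0.39, adjusted p = 0.949), 0.22 for Nefh (SE 0.56, adjusted p = 0.968) and 0.02 for Ina (SE 0.21, adjusted p = 0.995). With the animals as a replicate block the Nefm estimate was -0.78 (SE 0.24, edgeR unadjusted p = 0.00734, adjusted p = 0.517). In that fit 1881 of 21400 genes had an unadjusted p under 0.05. Leaving out animals gave -0.52 (without H) to -1.04 (without K) for Nefm. An unequal enrichment of Nefm in the tau and EYFP animals was thus not shown after adjustment, which does not show that the enrichment was equal.

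**Figure D4:**
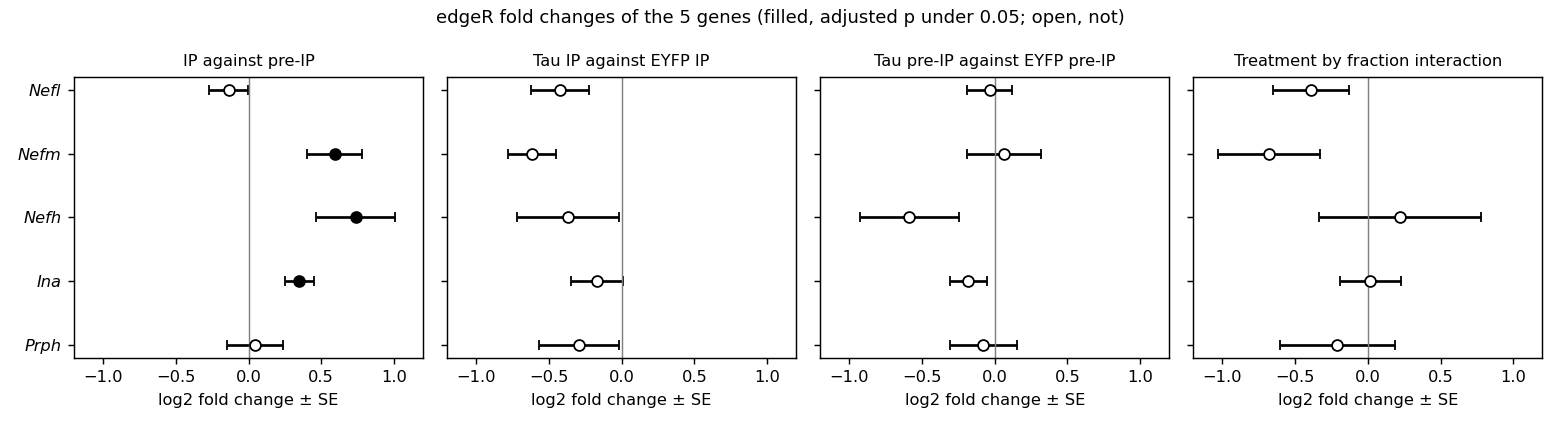
edgeR log2 fold changes (horizontal axis, bars ± SE) of the 5 genes in the 4 comparisons; filled points have an adjusted p under 0.05 over all genes. Filled points are Nefm, Nefh and Ina in IP against pre-IP, and no point is filled in the comparisons of tau with EYFP or in the interaction.

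The same question was put to single animals, each with its own IP over pre-IP log2 difference, with an exact permutation test, two-sided, over the 35 splits of 7 animals; its smallest possible p is 0.0286. For Nefl the mean was -0.32 ± 0.26 (SD, n = 4) in tau and 0.08 ± 0.05 (n = 3) in EYFP animals, a difference of -0.40 (exact permutation p = 0.0571). All 4 tau values lay below all 3 EYFP values, as they did for 5.6% of 20495 genes. With library totals in place of TMM the groups overlapped for Nefl, with -0.03 in both L and H (8.08% of genes were lower in tau without overlap on that scale), and the exact permutation p was 0.0857. For Nefm the means were 0.32 ± 0.32 and 1.06 ± 0.46, a difference of -0.74 (exact permutation p = 0.0857), and the groups overlapped. For Prph the difference was -0.25 (exact permutation p = 0.257), for Nefh 0.02 (p = 0.943) and for Ina 0.02 (p = 0.886). None of the 5 tests reached 0.05. The within-range differences were -0.55 and -0.26 for Nefl, -1.04 and -0.19 for Nefm, -0.38 and -0.07 for Prph, -0.51 and 0.89 for Nefh and -0.13 and 0.25 for Ina. For the last 2 genes the sign turned between library-number ranges.

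The noradrenergic list had its higher values in tau animals. Its mean log2 IP over pre-IP was 4.87 (B), 3.81 (C), 3.70 (L) and 1.88 (M) in tau animals and 0.82 (H), 1.02 (I) and 0.69 (K) in EYFP animals, a difference of 2.72 (exact permutation p = 0.0571). The groups did not overlap for this mean of 10 genes. Among single genes, 4.88% of 20495 did not overlap in this direction, and no such share was computed for means of 10 genes. By edgeR, 0 of the 10 genes of the list passed the interaction. The Nefl values of the same animals were -0.63 (B), -0.31 (C), 0.01 (L) and -0.35 (M) in tau animals. In EYFP animals they were 0.03 (H), 0.13 (I) and 0.09 (K). Whether the yield of the pull-down bears on the Nefl and Nefm values was not tested.

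**Figure D5:**
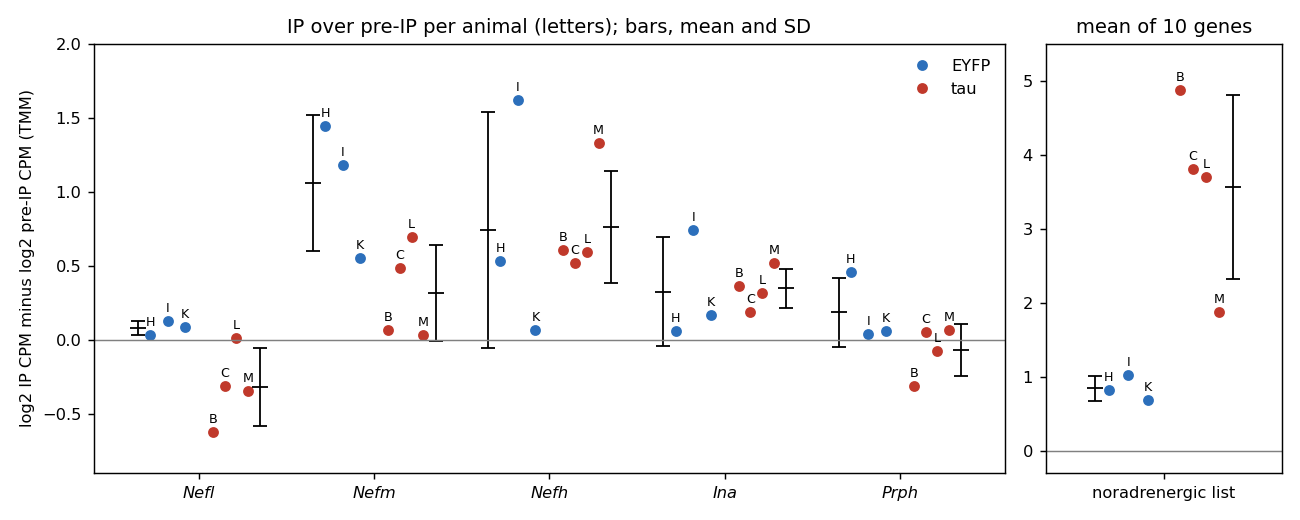
Log2 difference of IP over pre-IP CPM (vertical axis, TMM scaled) of each animal for the 5 genes and, at right on its own scale, the mean of the 10 noradrenergic markers; bars give mean and SD of the 3 EYFP and 4 tau animals. With TMM scaling, Nefl values of tau animals run from -0.63 to 0.01 and those of EYFP animals from 0.03 to 0.13, a gap that library totals do not show; noradrenergic values of tau animals run from 1.88 to 4.87, above the EYFP values.

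Genes that assemble, carry, modify or degrade neurofilaments were read from 6 lists of 39 genes, all of which were tested. In IP against pre-IP 8 of the 39 were called higher and 5 lower, with a median log2 fold change of 0.07 against -0.004 for all genes tested. Beside the 15.6% and 14.2% of all genes called in these directions, the counts do not set these lists apart, and the calls below describe single genes. Of the 7 transport motor genes 2 rose and 2 fell. Kif5b, a heavy chain of the kinesin that carries cargo down the axon, rose by 1.64 (log2, SE 0.14, edgeR adjusted p = 1.47e-05), with 58.1 to 79.1 CPM in tau pre-IP and 116 to 209 in tau IP, and 51.5 to 71.1 in EYFP pre-IP and 168 to 266 in EYFP IP. Its neuronal paralogue Kif5a, the kinesin linked to neurofilament transport, fell by 1.17 (SE 0.19, edgeR adjusted p = 0.000428) over all 14 libraries. Its CPM was 1309.8 to 2126 in tau pre-IP and 309 to 893 in tau IP, and 1431 to 2093 in EYFP pre-IP and 912 to 1058 in EYFP IP. Dctn1, the large subunit of the dynein activator dynactin, fell by 0.59 (SE 0.11, edgeR adjusted p = 0.00119).

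Of the 3 cytolinkers, which tie intermediate filaments to microtubules and actin, 2 rose and 1 fell. Dst (dystonin) rose by 1.03 (SE 0.17, edgeR adjusted p = 0.000416) and Plec (plectin) fell by 0.61 (SE 0.18, edgeR adjusted p = 0.0203). Of the 6 turnover and chaperone genes 2 rose. Of the 10 kinases and partners of the neurofilament tails 1 rose, of the 2 genes whose proteins bind neurofilament RNA 1 rose, and of the 11 other intermediate filament genes 0 rose and 2 fell. In tau against EYFP, 0 of the 39 passed in IP and 0 in pre-IP, where 31 and 19 of the log2 differences were below 0. The median in IP was -0.30, beside -0.08 for all genes tested.

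Genes most like each member were taken as the 3 with the highest Pearson r of log2 CPM deviations from the 4 group means over the 14 libraries, among 9699 genes of at least 10 CPM on average. These values are descriptions, since libraries of an animal share tissue and all genes of a library share its depth. For Nefl they were B3galt5 (r = 0.97) and Paqr8 (0.96), and for Nefm Ndrg1 (0.97), Ndrg4 (0.95) and Anxa6 (0.95). For Nefh they were Lrig1 (0.96) and Slc44a1 (0.92), for Ina Sap30l (0.95), 2510039O18Rik (0.95) and Rbm15b (0.94), and for Prph Lamp5 (0.98), Gpd1 (0.97) and Mag (0.97). No member was among the 3 genes most like another member. Between members r was highest for Nefl with Prph (0.86) and Nefh with Ina (0.82). It was 0.77 for Nefh with Prph and for Nefl with Nefm, and lowest for Nefm with Ina (0.24). Many other genes had a higher r. Among the 9699 genes Prph ranked 143 and Nefm 464 for Nefl, Ina ranked 117 for Nefh, and Ina ranked 3383 for Nefm.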

How the data were processed

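Raw read counts, whole numbers for each gene in each library, were deposited in 1 table. FastQC, Trim Galore, STAR, featureCounts and GRCm38/mm10 are named in the submitters' processing notes, and their settings are not given in the sources used here. Per the labels' protocols, polyadenylated RNA was amplified with a SMART-Seq v4 kit and tagged with Nextera XT. A deposited sheet lists, per the file headers, a quality score of the RNA (its integrity number), its concentration and a library number. Columns were read by position because the header holds stray cells, and tau construct counts equalled the sheet's. Exons came from GENCODE M21, whose gene starts and ends equal the deposited ones for 50924 shared identifiers and differ for 0.

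The members and gene lists were chosen with earlier results of these data known. Tests used edgeR 4.0.16 (quasi-likelihood F test, TMM, filterByExpr, Benjamini-Hochberg over all genes, threshold 0.05) in R 4.3.3. SE is the log2 fold change over the square root of F. CPM used library totals, and per-animal log2 values a prior count of 2. On simulated counts with 200 changed genes, edgeR recovered 48% of those changed by 1 on the log2 scale in IP against pre-IP (19472 genes) and 16% in tau IP against EYFP IP (19472 genes). Libraries with the same letter come from the same animal, per the labels, and their deviations from group means correlated by 0.147 to 0.359 in the 7 animals. In comparisons within a single fraction and in the permutation tests, p-values measure the spread between animals. The main IP against pre-IP and interaction fits took the libraries as separate units and ignored the pairing. Their p-values measure the spread between libraries, and the replicate block is the paired alternative. In IP against pre-IP the 3 pathway genes with the largest changes past the threshold in each direction were named, in other comparisons any that passed (0), and the 3 genes most like each member. A few genes that this rule selects are not reported here. Alternatives used DESeq2 1.42.0 and limma 3.58.1.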

Additional observations from a re-analysis of the deposited data

Results flagged for a closer look

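The log2 IP over pre-IP difference of Nefh in tau animal M was 1.33, far from the 0.52 to 0.61 of the other 3 tau animals. Animal M is the animal labelled female whose libraries held Y-linked counts. In all, 15 groups of 4 values were examined in this way, and chance singles out about 1 in 20 such groups.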

How the results depend on the processing

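In IP against pre-IP, the number of genes called went from 5819 to 1218 with EYFP animals alone and 3071 with those animals and the replicate block. Of the 5 members, 0 were called in tau animals alone, 1 in EYFP animals alone, 1 in tau animals with the replicate block, and 0 to 3 when leaving out each animal. In tau animals alone, without and with the replicate block, the log2 fold change was 0.278 and 0.281 for Nefm, 0.332 and 0.309 for Ina, -0.0698 and -0.106 for Prph, and for Nefh 0.809 without it. In EYFP animals alone it was 0.0881 and 0.0899 for Nefl, 0.342 and 0.332 for Ina, and 0.613 for Nefh without the block. Leaving out each animal gave 0.444 to 0.699 for Nefm, 0.590 to 0.921 for Nefh, 0.248 to 0.360 for Ina and -0.0419 to 0.100 for Prph. The paired fit over all 14 libraries (replicate block) called 6044 genes and changed no call of a member. In tau IP against EYFP IP, DESeq2 called 342 genes, no filter 113, and leaving out animals 0 to 128, the last without M. No filter called 44 genes in pre-IP, and leaving out animals 0 to 1. In the interaction DESeq2 called 52, no filter 67, and leaving out animals 0 to 56, again without M. No setting called a member in these 3 comparisons. In pre-IP, voom gave 0.0224 for Nefl and 0.0268 for Prph, and leaving out animals gave -0.149 to 0.113 for Nefl, -0.153 to 0.493 for Nefm, -0.861 to 0.155 for Nefh and -0.258 to 0.254 for Prph. The Nefh interaction was -0.165 with voom and -0.0139 with the replicate block, and -0.367 to 0.607 when leaving out animals. The Ina interaction was -0.0117 without a filter and -0.0165 with the replicate block, and -0.116 to 0.205 when leaving out animals. Per animal, library totals in place of TMM gave a tau minus EYFP difference of -0.0729 for Nefh and -0.0720 for Ina, and leaving out animals gave -0.315 to 0.463 and -0.108 to 0.233. The causes were not tested. All counts of the members lay far above the floor of 3 counts.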
